A study of Schmidtea mediterranea with 48 samples.

Results

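The transcript followed here is dd_Smed_v4_12634_0_1, 1 row of 26563 in the table of read counts, which is taken as planarian myoD. The deposited files list identifiers without gene names, so the name could not be checked against a sequence or a gene list. A fall in the libraries that received myoD double-stranded RNA (dsRNA) does not by itself identify the row, since other transcripts fell there too. No other row with a count carries the component number of this transcript. Poly(A) RNA came from wound faces of tail fragments of Schmidtea mediterranea, a free-living flatworm, of the strain CIW4, with 5 wounds per replicate. Animals were fed dsRNA so that a gene was silenced by RNA interference (RNAi) before amputation. In the myoD experiment, the groups were myoD RNAi and controls fed dsRNA of unc-22, a gene of the nematode Caenorhabditis elegans, each with 10 feedings in 5 weeks per the sample labels and 8 feedings per the series text. In the follistatin experiment, the groups were fst RNAi and unc-22 controls, each with 6 feedings in 3 weeks. Each of these arms was sampled right after amputation (0 hours post amputation, hpa) and again at 6 hpa, 24 hpa and 48 hpa, with 3 libraries at each time, which gives 16 groups and 48 libraries. All animals, controls included, had been fed dsRNA and amputated. The labels do not say whether replicates came from separate sets of animals, so a p-value here reflects only how far these libraries spread, and that spread may be technical.

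MyoD is a basic helix-loop-helix transcription factor that, in vertebrates, drives cells into the skeletal muscle lineage. In planarians myoD is known to be needed for the longitudinal fibres of the body wall, and planarian muscle is a main source of the secreted signals that tell regenerating tissue its position. Follistatin, encoded by fst, is a secreted inhibitor of Activin signals and is induced at planarian wounds.

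Levels are given in CPM, read counts scaled to library size, where the sizes were adjusted with TMM factors over all 48 libraries. Libraries held 7169717 to 22065480 counts, and the 6-feeding libraries at 48 hpa were among the shallowest, at 7169717 to 10545948. The other 42 libraries held 9265914 counts or more, so the ranges overlapped. The label of fst RNAi replicate 1 at 48 hpa notes contamination with human sequence. In that library the most abundant row of the table took 4.19% of the counts, against 6.02% to 11.6% in the other 47 libraries. A further split was seen with dd_Smed_v4_28185_0_1, a transcript singled out after its values were seen. It had 21 to 85 counts in the 9 libraries of fst RNAi at 24 hpa, fst RNAi at 48 hpa and 6-feeding control at 48 hpa, and 0 to 5 counts in the other 39 libraries. Comparisons that set these 3 groups against others of the 6-feeding experiment therefore cross that split, and its part in the results was not tested.

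The transcript was low in every library that received myoD dsRNA and in no other. The 12 myoD RNAi libraries held 5 to 30 reads of it each, or 0.372 to 2.18 CPM with a median of 0.998 CPM. The 12 control libraries of the same experiment held 120 to 270 reads, or 6.85 to 16.8 CPM with a median of 12.1 CPM. The 12 fst RNAi libraries held 102 to 288 reads, or 7.31 to 31 CPM with a median of 12.8 CPM. The 12 controls with 6 feedings held 99 to 275 reads, or 8.41 to 20 CPM with a median of 12.2 CPM. The highest myoD RNAi library thus lay below the lowest of the 36 libraries without myoD dsRNA. Since these are bulk samples, fewer cells with the transcript and less of it per cell cannot be told apart.

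**Figure D1:**
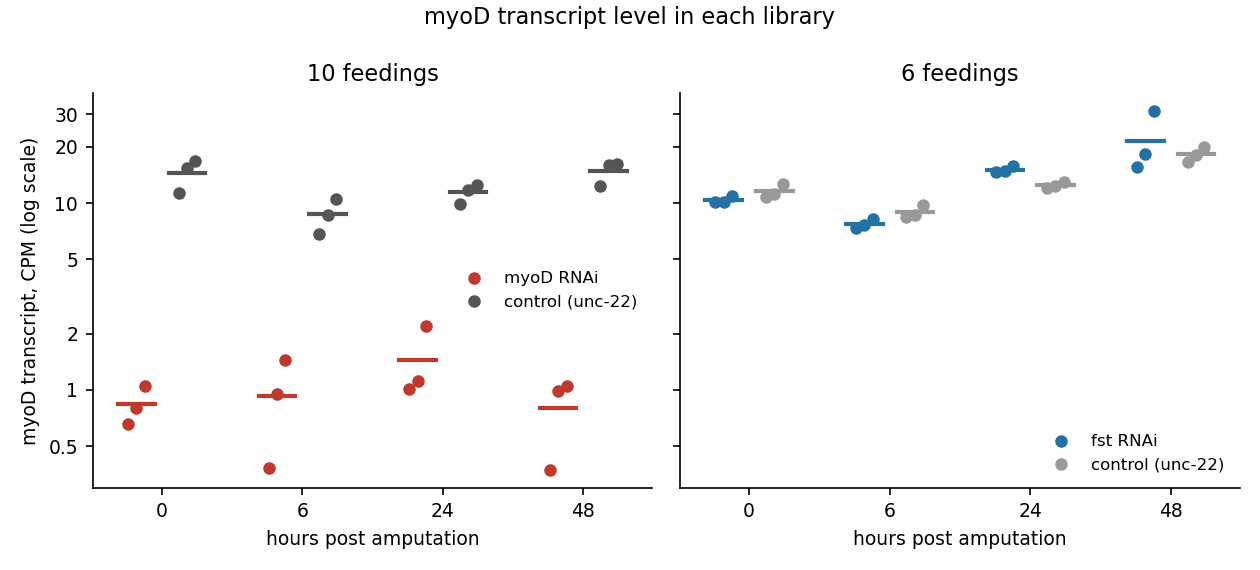
CPM of the myoD transcript in each library on a log axis, against hours post amputation, with 10 feedings on the left and 6 feedings on the right; points are libraries and bars are means of 3. All myoD RNAi libraries lie between 0.372 and 2.18 CPM, below every other library, and fst RNAi replicate 1 at 48 hpa stands above its group at 31 CPM.

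At the time of amputation, the 3 myoD RNAi libraries had 0.656, 0.802 and 1.05 CPM, against 11.3, 16.8 and 15.4 CPM in the controls. The transcript was thus already low in the earliest libraries, taken right after amputation, with a difference of -13.6 CPM between the group means. The log2 fold change was -4.12 (SE 0.37, 95% interval -4.88 to -3.36), which leaves 5.75% of the control level with an interval of 3.4% to 9.75%. It passed the test at an adjusted p of 5.16e-08 (edgeR quasi-likelihood test with Benjamini-Hochberg adjustment over 17527 transcripts). At this time 0.542% of all transcripts tested passed as lower. Among the 94 called falls with a mean of at least 1 CPM, none was larger, and the next was at a log2 fold change of -2.37.

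At 6 hpa, the myoD RNAi libraries had 0.945, 1.45 and 0.382 CPM, against 8.67, 6.85 and 10.5 CPM in the controls. The groups remained apart, with a smaller difference of -7.76 CPM between the means, and the controls were lower than at 0 hpa. The log2 fold change was -3.22 (SE 0.37, interval -3.98 to -2.46, edgeR adjusted p = 5e-06), or 10.7% of the control level (6.33% to 18.2%). Transcripts called lower made up 0.365% of those tested, and none of the 63 with a mean of at least 1 CPM fell further.

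At 24 hpa, the myoD RNAi libraries had 1.02, 1.11 and 2.18 CPM, against 9.93, 12.5 and 11.8 CPM in the controls. The mean of 1.44 ± 0.649 CPM was the highest of the myoD RNAi groups, with 1 library of the 3 well above the others. The log2 fold change was -3.0 (SE 0.32, interval -3.68 to -2.33, edgeR adjusted p = 1.03e-06), or 12.5% of the control level (7.82% to 19.9%). By then 3.37% of transcripts were called lower, and 1 of the 572 with a mean of at least 1 CPM had a larger fall, of -3.65 on the log2 scale. Calls in either direction, 1024 with all libraries, dropped to 356 when myoD RNAi replicate 2 was left out, and to 430 and 460 when control replicate 1 or 3 was. They rose to 1258 without control replicate 2, and were 946 and 804 without myoD RNAi replicate 1 or 3.

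At 48 hpa, the myoD RNAi libraries had 0.98, 0.372 and 1.05 CPM, against 15.9, 16.2 and 12.4 CPM in the controls. The difference between the means, -14 CPM, was the largest of the 4 times. The log2 fold change was -4.16 (SE 0.39, interval -4.96 to -3.35, edgeR adjusted p = 2.01e-09), or 5.61% of the control level (3.21% to 9.81%). Now 12.9% of transcripts were called lower, and 2 of 2174 with a mean of at least 1 CPM fell further. For each of these times, the exact permutation test of 3 libraries against 3 gave a two-sided p of 0.1, the smallest it allows.

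In the authors' deposited table the same comparisons gave ratios of myoD RNAi to control of 5.78% at 0 hpa, 10.7% at 6 hpa, 12.6% at 24 hpa and 5.37% at 48 hpa, each with an adjusted p of 3.19e-17 or less. These are ratios of group means of counts divided by size factors.

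The number of transcripts called in edgeR moved with single libraries. Such a count depends on how many libraries a group has, so it cannot be compared directly with a fold change. Leaving out each library in turn gave 48 to 90 calls in either direction at 0 hpa, against 103 with all libraries, and 34 to 191 at 6 hpa, against 99 with all. The lowest came without myoD RNAi replicate 1 at 0 hpa and control replicate 1 at 6 hpa, and the highest at 6 hpa came without control replicate 2. At 48 hpa there were 2730 calls without control replicate 1, against 4488 with all. Over the same fits the log2 fold change of the myoD transcript kept within -4.30 to -3.97 (0 hpa), -3.74 to -2.81 (6 hpa), -3.41 to -2.80 (24 hpa) and -4.39 to -3.86 (48 hpa). The edgeR adjusted p of this transcript at 0 hpa ran from 1.58e-08 to 6.44e-06.

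The remaining share thus ranged from 5.61% to 12.5%, and the question is whether it changed with time. Relative to 0 hpa, the log2 fold change was smaller in size by 0.90 at 6 hpa (SE 0.52, interval -0.18 to 1.97), by 1.12 at 24 hpa (SE 0.49, interval 0.10 to 2.13) and differed by -0.04 at 48 hpa (SE 0.53, interval -1.15 to 1.07). None of these passed the adjustment over all transcripts (edgeR adjusted p = 0.999, 0.268 and 0.981), and the unadjusted p at 24 hpa was 0.0311 in edgeR. Over all transcripts, 0%, 0.833% and 12.9% passed for these terms. The term at 6 hpa was 0.38 without myoD RNAi replicate 2 of 6 hpa and 1.31 without replicate 3, and the term at 24 hpa was 0.71 without myoD RNAi replicate 3 of 24 hpa and up to 1.31 without any other single library. The test of all 3 terms together gave an adjusted p of 0.214 in edgeR, where 11.2% of transcripts passed, but an adjusted p of 0.0241 in DESeq2, which called 2144 transcripts. A difference in the depth of silencing between times was therefore not settled by these libraries.

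**Figure D2:**
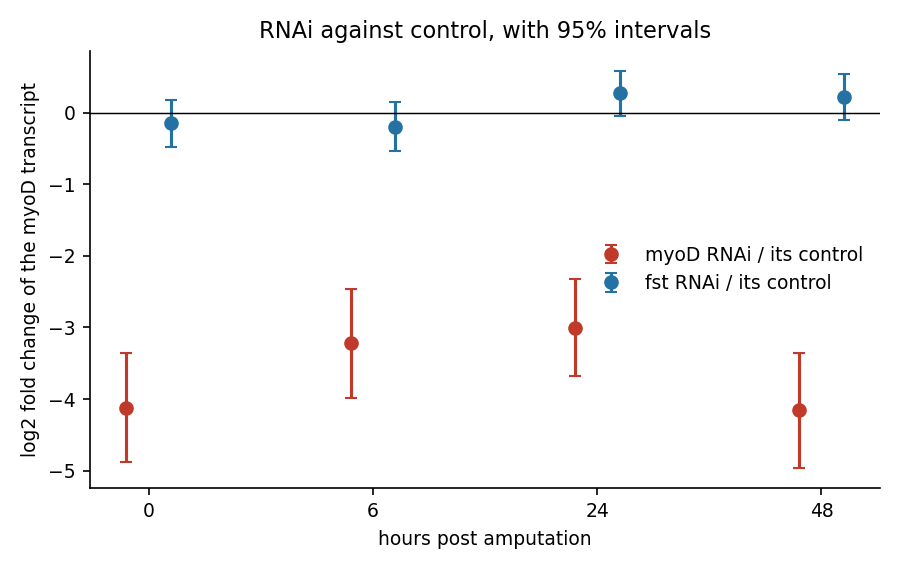
Log2 fold change of the myoD transcript, RNAi over its own controls, against hours post amputation, with myoD RNAi left of fst RNAi; points are edgeR estimates from 3 libraries against 3 and bars are 95% intervals. The myoD RNAi estimates lie between -4.16 and -3.0, and all 4 intervals for fst RNAi include 0.

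Few reads remained after myoD RNAi, which limits what can be read within this arm. The summed counts of 3 libraries were 44 at 0 hpa, 46 at 6 hpa, 63 at 24 hpa and 38 at 48 hpa, with 95% Poisson intervals of 32 to 59.1, 33.7 to 61.4, 48.4 to 80.6 and 26.9 to 52.2 counts. These intervals cover counting error only. The coefficient of variation between libraries was 24% at 0 hpa, 57.7% at 6 hpa, 45.2% at 24 hpa and 46.6% at 48 hpa. Counting alone at these depths gives 26.1%, 25.5%, 21.8% and 28.1%. The observed values were above these at the 3 later times, but a spread from 3 libraries is imprecise and the excess was not tested. No library was at or below a floor of 3 counts.

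No change over time was detectable in the myoD RNAi arm. Its means were 0.837 ± 0.201 CPM at 0 hpa, 0.926 ± 0.534 CPM at 6 hpa, 1.44 ± 0.649 CPM at 24 hpa and 0.802 ± 0.374 CPM at 48 hpa (SD, n = 3 each). Against 0 hpa the log2 fold change was 0.15 at 6 hpa (interval -0.84 to 1.13), 0.76 at 24 hpa (interval -0.16 to 1.68) and -0.02 at 48 hpa (interval -1.05 to 1.0), with edgeR adjusted p-values of 0.873, 0.255 and 0.988. Over all transcripts, 17%, 18% and 10.3% were called. The libraries of each later time overlapped those of 0 hpa. The steps from one time to the next, 0.62 between 6 and 24 hpa and -0.78 between 24 and 48 hpa, did not pass in edgeR either (adjusted p = 0.403 and 0.282, with 13.1% and 11.8% of transcripts called). The intervals are wide and do not show a flat course. At 6 and 48 hpa they include the change seen in the controls of the same experiment, and at 24 hpa the control change of -0.36 lies below the interval. Without myoD RNAi replicate 3 at 24 hpa, the estimate at that time was 0.35.

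In the controls of the myoD experiment the transcript dipped after amputation and was back at its first level by 48 hpa. Means were 14.5 ± 2.85 CPM at 0 hpa, 8.69 ± 1.85 CPM at 6 hpa, 11.4 ± 1.34 CPM at 24 hpa and 14.8 ± 2.15 CPM at 48 hpa (SD, n = 3 each). At 6 hpa it fell to 59.3% of the 0 hpa level (log2 fold change -0.75, SE 0.21, interval -1.20 to -0.31, edgeR adjusted p = 0.0146), and the 2 groups of libraries did not overlap. At that time 9.97% of transcripts were called lower. The call was lost in edgeR without control replicate 2 or 3 at 0 hpa (adjusted p = 0.0685 and 0.054) or control replicate 2 at 6 hpa (adjusted p = 0.0703), and the authors' deposited table gives an adjusted p of 0.0521.

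Later control times had overlapping libraries with 0 hpa. The log2 fold change was -0.36 at 24 hpa (SE 0.20, interval -0.78 to 0.07) and 0.01 at 48 hpa (SE 0.20, interval -0.40 to 0.43), with edgeR adjusted p-values of 0.201 and 0.968. At 24 hpa 30.8% and at 48 hpa 43.6% of transcripts were called in either direction, so this transcript was among those not called at times when many were. The steps of 0.40 between 6 and 24 hpa and 0.37 between 24 and 48 hpa did not pass the edgeR test on their own (adjusted p = 0.179 and 0.281, with 28% and 10.4% of transcripts called).

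In the 6-feeding controls the transcript was also lowest at 6 hpa, and by 48 hpa it was above its first level. The 3 libraries had 11.2, 12.7 and 10.8 CPM at 0 hpa. At 6 hpa they had 8.41, 9.73 and 8.66 CPM, all below those of 0 hpa. At 24 hpa they had 13, 12.3 and 12.1 CPM, overlapping 0 hpa (log2 fold change 0.12, edgeR adjusted p = 0.66, with 15.5% of transcripts called). At 48 hpa they had 18.1, 16.6 and 20 CPM, above every other library of this arm. The level at 48 hpa was 1.58-fold that at 0 hpa (log2 fold change 0.66, SE 0.16, interval 0.34 to 0.98, edgeR adjusted p = 0.00206), where 16% of transcripts were called higher. The authors' deposited table has the same direction at 48 hpa, a ratio of 1.58, but an adjusted p of 0.146. The fall at 6 hpa, a log2 fold change of -0.37 (SE 0.16, interval -0.71 to -0.04), missed the threshold in edgeR (adjusted p = 0.18), although the libraries did not overlap; 6.59% of transcripts were called in this comparison. With the library noted for contamination left out of the fit, the same fall had an edgeR adjusted p of 0.0158.

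The later steps in these controls lay near the threshold. Between 24 and 6 hpa the log2 fold change was 0.50 (SE 0.16, edgeR adjusted p = 0.0612, with 6.43% of transcripts called), and between 48 and 24 hpa it was 0.53 (SE 0.16, edgeR adjusted p = 0.0466), with 2.14% of transcripts called higher in the second of these. The call for 48 against 24 hpa was lost in edgeR without any single library of the 6, with adjusted p-values of 0.0659 to 0.156. The 48 hpa libraries lie on the other side of the split shown by dd_Smed_v4_28185_0_1.

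After fst RNAi the transcript was again lowest at 6 hpa and highest at 48 hpa. Libraries had 10.2, 10.1 and 10.9 CPM at 0 hpa and 8.22, 7.31 and 7.61 CPM at 6 hpa. They had 15.8, 14.7 and 14.8 CPM at 24 hpa and 31, 18.2 and 15.7 CPM at 48 hpa. Every library of 24 and 48 hpa was above those of 0 hpa, and every library of 6 hpa below them. The rise at 24 hpa against 6 hpa was 1.95-fold (log2 fold change 0.97, SE 0.16, edgeR adjusted p = 0.000566), with 2.54% of transcripts called higher.

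Against 0 hpa in the same arm, the log2 fold change was -0.42 at 6 hpa (SE 0.16, interval -0.75 to -0.09, edgeR adjusted p = 0.121), 0.54 at 24 hpa (SE 0.16, interval 0.22 to 0.87, edgeR adjusted p = 0.0287) and 1.03 at 48 hpa (SE 0.16, interval 0.71 to 1.36, edgeR adjusted p = 0.000121). In either direction 7.72% of transcripts were called at 6 hpa, and those called higher made up 4.37% at 24 hpa and 10.6% at 48 hpa. The fall at 6 hpa had an edgeR adjusted p of 0.00633 with the library noted for contamination left out of the fit. The call at 24 hpa was lost in edgeR without any single library of the 6 (adjusted p = 0.0527 to 0.095), and the authors' deposited table gives an adjusted p of 0.513 for it. At 48 hpa, replicate 1, whose label notes contamination, was at 31 CPM, against 18.2 and 15.7 CPM in the other libraries. The mean was 21.6 ± 8.19 CPM with all 3 libraries and 17 ± 1.79 CPM without it (n = 2). Without it the log2 fold change from 0 hpa was 0.70 (edgeR adjusted p = 0.000142). The step between 48 and 24 hpa was 0.49 with all libraries (edgeR adjusted p = 0.094, with 1.08% of transcripts called) and 0.16 without replicate 1 (edgeR adjusted p = 0.675). It passed in edgeR without replicate 2 of 48 hpa, at 0.59 (adjusted p = 0.0347), and without replicate 3 of 48 hpa, at 0.68 (adjusted p = 0.012). Both later times cross the split shown by dd_Smed_v4_28185_0_1.

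**Figure D3:**
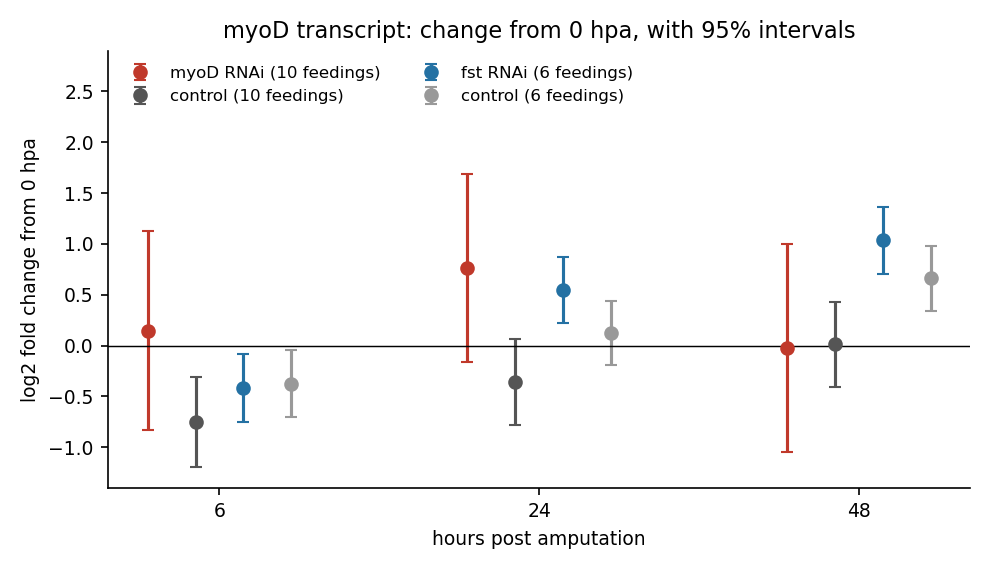
Log2 fold change of the myoD transcript from 0 hpa within each arm, against hours post amputation; points are edgeR estimates from 3 libraries against 3 and bars are 95% intervals, with each RNAi arm left of its control. The 6 hpa estimates are below 0 in the 10-feeding controls (-0.75), fst RNAi (-0.42) and 6-feeding controls (-0.37), and the wide bars of the myoD RNAi arm include 0 at each time.

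A difference between fst RNAi and its own controls was not detected at any time. At 0 hpa the log2 fold change was -0.15 (SE 0.16, interval -0.48 to 0.18, edgeR adjusted p = 0.85), with overlapping libraries and 0.646% of transcripts called. That share is 115 transcripts, against 17 without control replicate 2 at 0 hpa and 322 with the library noted for contamination left out of the fit. At 6 hpa it was -0.20 (SE 0.16, interval -0.54 to 0.14, edgeR adjusted p = 0.664), with every fst RNAi library below every control, at 7.31 to 8.22 CPM against 8.41 to 9.73 CPM. At 24 hpa it was 0.27 (SE 0.15, interval -0.05 to 0.59, edgeR adjusted p = 0.641), with every fst RNAi library above every control, at 14.7 to 15.8 CPM against 12.1 to 13 CPM; the groups of 24 hpa lie on opposite sides of the split described above. Of all transcripts, 0.982% were called at 6 hpa and 0.842% at 24 hpa, and the exact permutation p was 0.1 at both times, the smallest possible. With the library noted for contamination left out of the fit, the edgeR adjusted p was 0.34 at 6 hpa and 0.182 at 24 hpa. Calls over all transcripts then numbered 571 and 381, against 175 and 150 with all libraries.

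At 48 hpa the fst RNAi and control libraries overlapped, and the sign of the difference rested on the library with the contamination note. The log2 fold change was 0.23 (SE 0.16, interval -0.10 to 0.55, edgeR adjusted p = 0.422, with 7.3% of transcripts called) with it and -0.10 (edgeR adjusted p = 0.704) without it. The 7.3% is 1300 transcripts, against 127 with only the groups compared in the fit and 2335 with all 48 libraries. The intervals of the 4 times ran from 69% to 150% of the control level. They rest on 1 spread shared by all 24 libraries of the experiment. The fst RNAi libraries of 48 hpa spread more than that, with a coefficient of variation of 37.9%. The range is therefore not a firm bound on the effect, least of all at 48 hpa. Whether the fst effect varied over the times was not settled either (edgeR adjusted p = 0.453 for the 3 terms together, with 2.07% of transcripts called).

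Set against each other, the effect of myoD RNAi on this transcript differed from that of fst RNAi at each time. In a fit of all 48 libraries, the difference of the log2 fold changes was -3.95 at 0 hpa (SE 0.37), -3.03 at 6 hpa (SE 0.38), -3.28 at 24 hpa (SE 0.34) and -4.39 at 48 hpa (SE 0.39). The edgeR adjusted p-values were 4.97e-10, 3.15e-06, 2.99e-08 and 2.98e-11. It had the smallest p of 18230 transcripts tested in this comparison at each of the 4 times, while 0.724%, 1.71%, 0.51% and 0.521% of them were called. The transcript was followed because it was taken as the target of the myoD dsRNA, so its rank is only a description. Each effect is set against its own controls, but the dsRNA given cannot be told apart from feeding number and experiment here.

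The control arms did not differ detectably from each other at a matched time. The 10-feeding controls over the 6-feeding controls gave log2 fold changes of 0.32 at 0 hpa (interval -0.06 to 0.70), -0.04 at 6 hpa (interval -0.45 to 0.38), -0.12 at 24 hpa (interval -0.51 to 0.26) and -0.29 at 48 hpa (interval -0.68 to 0.09), with edgeR adjusted p-values of 0.346, 0.905, 0.875 and 0.627. Feeding number and experiment cannot be told apart in these comparisons. Over all transcripts, 5.88%, 33.9%, 1.72% and 0.477% were called at these times, so the transcript was not called at 6 hpa even though a large share was. At 48 hpa all 10-feeding controls, at 12.4 to 16.2 CPM, lay below all 6-feeding controls, at 16.6 to 20 CPM.

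The rise to 48 hpa seen in the 6-feeding controls was not seen in the 10-feeding controls, and the difference of the changes was tested. The change from 0 to 48 hpa was lower by 0.61 on the log2 scale in the 10-feeding controls (estimate -0.61, SE 0.27, interval -1.15 to -0.07), with an unadjusted p of 0.0281 and an adjusted p of 0.272 in edgeR. At 6 and 24 hpa the differences were -0.36 (SE 0.28) and -0.44 (SE 0.27), with edgeR adjusted p-values of 0.547 and 0.629. Over all transcripts, 4%, 0.395% and 0.905% were called for the changes to 6, 24 and 48 hpa.

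Ordered by mean level, the 16 groups fell into 4 runs with no overlap between neighbours at the breaks. The first held fst RNAi at 48 hpa (21.6 ± 8.19 CPM) and 6-feeding control at 48 hpa (18.2 ± 1.73 CPM). The second ran from fst RNAi at 24 hpa (15.1 ± 0.607 CPM) through 10-feeding control at 48 hpa, 10-feeding control at 0 hpa, 6-feeding control at 24 hpa, 6-feeding control at 0 hpa and 10-feeding control at 24 hpa to fst RNAi at 0 hpa (10.4 ± 0.41 CPM), each of which overlapped the next. The third held the 6 hpa groups without myoD dsRNA, which were 6-feeding control (8.93 ± 0.701 CPM), 10-feeding control (8.69 ± 1.85 CPM) and fst RNAi (7.72 ± 0.464 CPM). The last held the myoD RNAi groups, at 0.802 to 1.44 CPM, which overlapped one another. Groups that are not neighbours can overlap across a break. At the first break, 10-feeding control at 0 hpa reached 16.8 CPM, above the lowest library of each group in the first run. Those were at 16.6 CPM in 6-feeding control and 15.7 CPM in fst RNAi. At the next break, the 10-feeding controls at 6 hpa, which reached 10.5 CPM, overlapped fst RNAi at 0 hpa. Only the myoD RNAi groups lay apart from every group outside their run.

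The spread of the transcript between libraries was set against that of counting alone, with no test of a difference between experiments. In the myoD RNAi groups the variance was 0.826, 5.56, 4.15 and 2.37 times that of counting at 0, 6, 24 and 48 hpa, and in the 10-feeding controls it was 2.18 to 8.57 times. In the 6-feeding groups it was 0.276 to 1.58 times, except at fst RNAi at 48 hpa, where it was 26.8 times. The biological coefficient of variation of this transcript was 17.9% in the 10-feeding fit and 12.3% in the 6-feeding fit, whereas the common value over all transcripts was 8.34% and 13%.

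The transcripts whose pattern was most like it were named by the correlation of group means of log2(CPM + 0.5), over 15234 transcripts with a mean of at least 1 CPM. Over all 16 groups these were dd_Smed_v4_18181_0_1 (Pearson r = 0.964) and dd_Smed_v4_14590_0_1 (r = 0.953). Points in these correlations share libraries and depth, and the myoD RNAi groups, which lie far below the others, weigh heavily in them. With Spearman's rho in place of r, the named transcripts ranked 96th and 416th, with rho of 0.759 and 0.656. The third transcript by r was close to the second, at 0.951.

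Both of these transcripts were also lower after myoD RNAi at every time. dd_Smed_v4_18181_0_1 had log2 fold changes of -2.37, -1.82, -1.11 and -2.11 at 0, 6, 24 and 48 hpa, with edgeR adjusted p-values of 0.000774 or less. dd_Smed_v4_14590_0_1 had -1.17, -1.41, -1.22 and -1.61, with edgeR adjusted p-values of 6.63e-07 or less. Its level was 3.47 ± 0.489 CPM after myoD RNAi and 7.75 ± 0.284 CPM in the controls at 0 hpa (SD, n = 3 each). These falls are what chose the transcripts and are given as a description.

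Leaving out the myoD RNAi groups, the most alike over the remaining 12 groups were dd_Smed_v4_15107_0_1 (r = 0.965) and dd_Smed_v4_16955_0_1 (r = 0.938). The third by r was close behind, at 0.936. With Spearman's rho, the named transcripts ranked 4th and 31st, with rho of 0.944 and 0.902. They had their low point at 6 hpa and their high point at 48 hpa in the 3 arms without myoD dsRNA. This course is what chose the transcripts and is given as a description. Without the library with the contamination note they remained first and second, with r of 0.963 and 0.929. In that library dd_Smed_v4_15107_0_1 was at 10.6 CPM, against 3.21 and 3.4 CPM in the other fst RNAi libraries of 48 hpa. For dd_Smed_v4_16955_0_1 the values were 17.8 CPM, against 7.99 and 8.41 CPM. Both thus stood apart in that library, as the myoD transcript did. That library was part of the group means that chose them, so this too is a description.

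After myoD RNAi these transcripts did not share the deep fall. dd_Smed_v4_15107_0_1 had log2 fold changes of 0.17, 0.09, 0.86 and -0.15 against control at 0, 6, 24 and 48 hpa, and rose at 24 hpa in edgeR (adjusted p = 0.0191; the others 0.643 or more). Its level at 24 hpa was low in both groups, at 2.13 ± 0.408 CPM after myoD RNAi and 1.19 ± 0.292 CPM in the controls. At that time 2.48% of transcripts were called higher. dd_Smed_v4_16955_0_1 had -0.50, -0.63, 0.17 and -0.59, and fell at 48 hpa in edgeR (adjusted p = 0.00698, the others 0.123 or more). At 48 hpa 12.9% of transcripts were called lower.

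**Figure D4:**
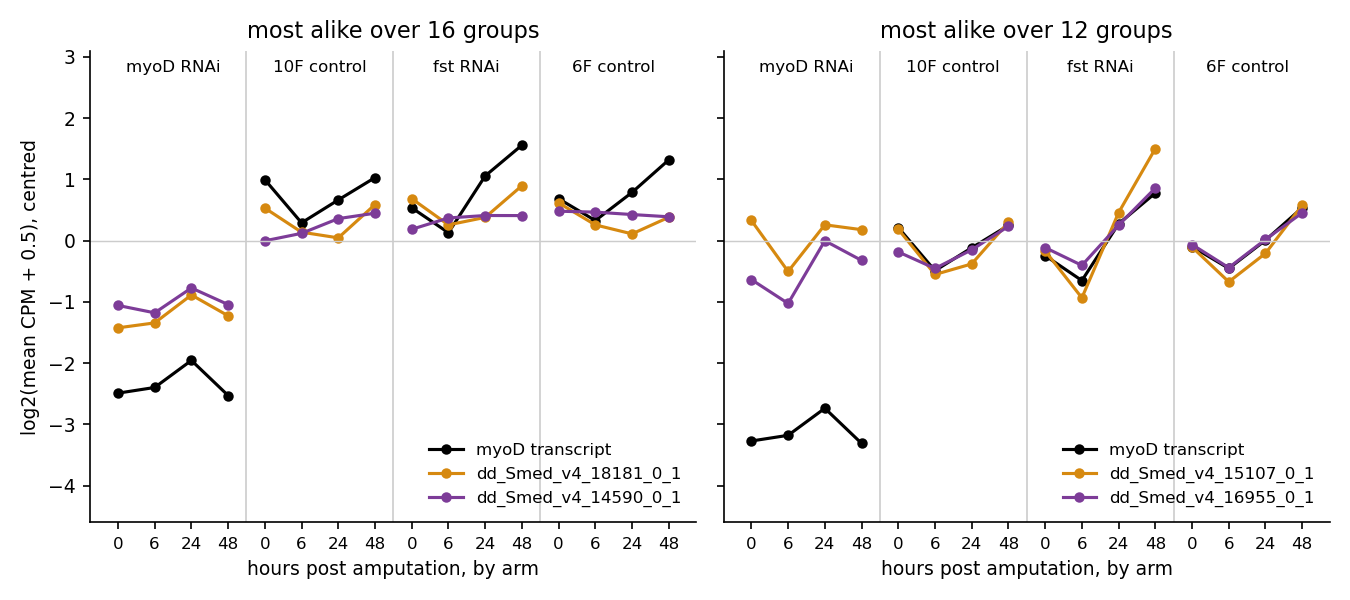
Group means as log2(mean CPM + 0.5), centred on the 16 groups (left) or on the 12 groups without myoD dsRNA (right), against hours post amputation within each arm; black is the myoD transcript and colours are the transcripts most like it. On the left, dd_Smed_v4_18181_0_1 (r = 0.964) and dd_Smed_v4_14590_0_1 (r = 0.953) are low in the myoD RNAi arm. On the right, dd_Smed_v4_15107_0_1 (r = 0.965) and dd_Smed_v4_16955_0_1 (r = 0.938) are lowest at 6 hpa and highest at 48 hpa in each of the 3 arms. These patterns are what chose the transcripts.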

How the data were processed

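Bowtie 1.1.1, cutadapt 1.8, DESeq, SAMtools and CASAVA are listed in the submitters' processing notes. Libraries came from a stranded kit per the labels; use of strand in the counting is not given. The authors deposited raw read counts per transcript. Their comparison tables hold, per the file headers, group means as a normalised signal, a ratio of these means, its log2 value and p-values before and after adjustment. The labels of the 6-feeding samples cite comparison files of the other arm, so the means were recomputed. For all 16 groups, counts divided by median-of-ratios size factors within an experiment came within 0.001 of the deposited means.

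Counts were analysed with edgeR 4.0.16 in R 4.3.3 (filterByExpr, TMM, robust quasi-likelihood, 1 coefficient per group), with each experiment fitted apart (17527 and 17815 transcripts) and all 48 libraries together (18230) for differences between experiments. A call needed p under 0.05 after Benjamini-Hochberg adjustment across every transcript tested. Standard errors come from the information matrix and the moderated dispersion. Counts were simulated for myoD RNAi against control at 0 hpa, over 17527 transcripts. In them, 95% intervals covered 92% of 50 transcripts lowered by 4 on the log2 scale, and 100% of these were called. Of the calls in that simulation, 7.83% were false. The simulated spread followed the trend over abundance, not the myoD transcript's own biological coefficient of variation of 17.9%. Coverage at that transcript's own spread was not tested. Alternatives were DESeq2 1.42.0, other scalings, no filter, a replicate block, other sets of libraries in the fit and leaving out each library. No pair of libraries in a group was identical or within sampling noise (lowest chi-square per degree of freedom 3.83).

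By rule, the 2 transcripts most alike over 16 and over 12 groups were named. The transcript and lists were chosen with earlier results of these data known. Marker and wound-gene lists could not be matched to identifiers, so the tissue label was not checked against markers.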

Additional observations from a re-analysis of the deposited data

How the results depend on the processing

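The fall after myoD RNAi and its difference from the fst effect passed the threshold in every alternative run, at all 4 times. Over the 47 comparisons, 754 of 787 alternative values stayed on the same side of the threshold and 0 called values changed direction. Values are log2 fold changes unless named as a p. With DESeq2, the test of the myoD effect over time had an adjusted p of 0.0241, 48 against 24 hpa after fst RNAi was 0.50 and now called, and 24 against 6 hpa in 6-feeding controls was 0.49 and called. That last step was also called with total counts only (0.59), upper quartile scaling (0.53), only the groups compared (0.51) and without fitting the library with the contamination note (0.50). Without that library, the 6 hpa falls were called in 6-feeding controls (-0.38) and after fst RNAi (-0.42) and, for fst RNAi, also with only the groups compared (-0.41). The call for 48 against 24 hpa in 6-feeding controls was lost with RLE factors (0.53), no filter (0.50), all 48 libraries (0.54) and the replicate block (0.53). Those lost elsewhere were fst RNAi at 24 against 0 hpa with all 48 libraries (0.53) and at 48 against 0 hpa with only the groups compared (1.05, adjusted p = 0.0643). For these the cause was not tested.

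Leaving out single libraries gave -0.92 to -0.60 for 6 against 0 hpa in 10-feeding controls, 0.46 to 0.59 for 48 against 24 hpa in 6-feeding controls, 0.51 to 0.58 for fst RNAi at 24 against 0 hpa and 0.16 to 0.68 for fst RNAi at 48 against 24 hpa, which was called without replicate 2 or 3 of 48 hpa (0.59 and 0.68). Same-numbered libraries deviated together in 4 of 24 pairs (correlation over 0.1), 3 of them in the myoD experiment, and in opposite directions in 4 (below -0.1). The own number was the best match in 9 of the 24 pairs, including each myoD RNAi library at 0 hpa. Each library had only 3 controls to match, so a share of such matches arises without any pairing, and the number was not tested. Numbers were not treated as pairs in the main fits, and the replicate block changed no other call. Low counts after myoD RNAi, 5 to 30 per library, limit comparisons within that arm.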
